A study of Drosophila melanogaster with 3 samples.

Results

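Gene expression in cells from the apical tip of the testis was compared with that in male thorax, gene group by gene group. The members are the 8 arrays whose labels name these tissues, 4 of testis apical tip and 4 of male thorax, of 12 arrays in the series; the remaining 4 arrays hold female thorax and entered the fit only to estimate the spread. All flies were wild type of the OreR laboratory strain, adult and, per the methods, mated, raised at room temperature without treatment, and, per the methods, the RNA of each tissue came as 4 independent pools of many animals, 1 per array. The tips were cut away from the testis sheath, and the thoraxes were freed of head, abdomen, legs and wings. Per the methods such tips hold the hub, the stem cells of the germline and of the soma, cyst cells, dividing spermatogonia and young spermatocytes, so that "germline" below names the dissection and not a purified cell type, and the thorax is a whole body segment with flight muscle, nerve cord, gut, fat body, trachea and cuticle. In bulk RNA of this kind, fewer cells of a type and less RNA per cell cannot be told apart.

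In the apical tip of the Drosophila testis a cluster of somatic hub cells anchors germline stem cells, whose daughters divide as spermatogonia inside an envelope of somatic cyst cells. After the last mitotic division the spermatocytes grow, and a set of testis-specific transcription regulators known as the meiotic arrest genes then switches on most of the genes needed for the meiotic divisions and for building a sperm. The thorax consists largely of indirect flight muscle, a tissue with crystalline sarcomeres and one of the highest known rates of mitochondrial respiration.

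Levels are given as the log2 of the mean background-subtracted signal of a probe minus the 75th percentile of the same array, called the scaled level here, and a change is the mean scaled level in germline minus that in male thorax. A gene was represented by its brightest probe, and levels were not compared between genes. Of 12995 genes on the array, 11996 passed the filter on dim probes. Of these, 4535 were called higher in germline than in male thorax, or 37.8%, and 4888 were called lower, or 40.7% (limma, Benjamini-Hochberg adjusted p under 0.05). With 9423 genes called in either direction, the count of any gene group is to be read against those shares and against the median change of all genes tested, which was -0.20.

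The direction of moderate changes depended on the scaling. The 75th percentile of log2 signal lay between 13.5 and 13.8 on the germline arrays and between 10.9 and 11.7 on the male thorax arrays. Without scaling the median change of all genes was 2.15, and 76.0% of called genes were higher in germline, against 48.1% on the scaled values and 53.7% after quantile normalization, for which the median change was 0.22. Of 37 gene lists described below, 17 had a median change above 0, all of which also did so without scaling. Of the other 20 lists, 7 had a median above 0 without scaling, and these are named where they occur. Relative to the median of all genes, which removing the scaling leaves as it is, all 37 lists kept their direction after quantile normalization.

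Arrays within a tissue differed in 2 ways that touch the results. Germline replicate 1 correlated with the other germline arrays at r of 0.809 to 0.812 across probes, while those 3 correlated with each other at 0.991 to 0.996, and its share of probes well above background was 57.3%, the lowest of the 8 arrays, against up to 74.8% in its tissue. With germline replicates 2 to 4 alone, 4890 genes (40.8%) were called higher and 5457 (45.5%) lower. Male thorax replicate 3 correlated with germline at r of 0.53 to 0.54 and replicate 4 at 0.46 to 0.49, against 0.39 to 0.44 for replicates 1 and 2. Without male thorax replicate 3, 4396 genes were called higher and 4747 lower. One slide holds germline replicates 1 and 2 and male thorax replicates 3 and 4. On this slide alone 2476 genes were called higher and 2528 lower, and with slide as a block 4464 and 4804. All 31 lists whose median lay over 1 log2 unit from that of all genes kept their direction on that slide alone, with slide as a block and with germline replicates 2 to 4 alone.

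**Figure D1:**
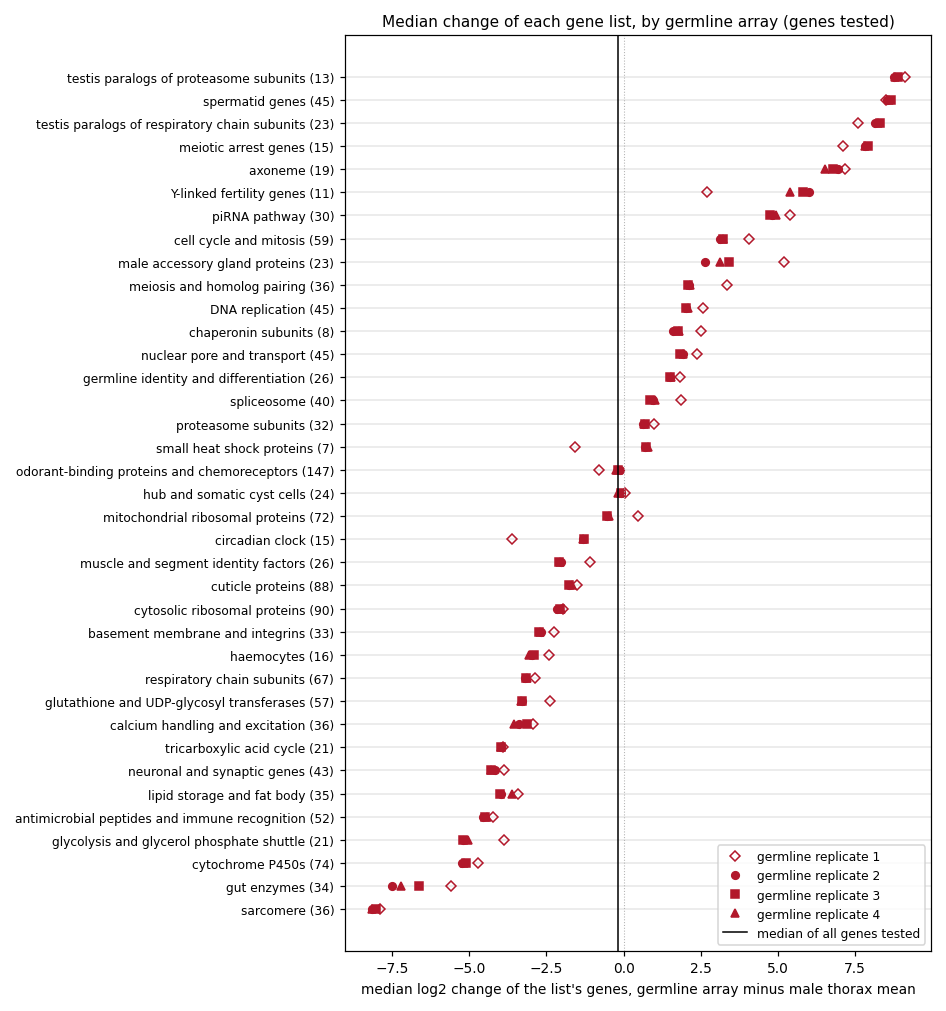
Median change of each of 37 gene lists for each germline array (horizontal axis, log2 level on that array minus the mean of the 4 male thorax arrays; number of genes tested in parentheses). The vertical black line is the median change of all genes tested, -0.20. Germline replicate 1 (open diamonds) falls on the same side of that line as replicates 2 to 4 for the lists at either end. It stands apart from them for several lists, among them Y-linked fertility genes and small heat shock proteins. Its median scaled level was also apart for gut enzymes (-4.34 against -6.41 to -6.05) and basement membrane and integrins (-1.18 against -3.03 to -2.85).

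The labels were first checked against defining markers. Vasa, the germline RNA helicase encoded by vas, had scaled levels of 1.17, 0.53, 0.31 and 0.54 on the germline arrays and -7.94, -7.03, -6.18 and -6.83 on the male thorax arrays, where it was well above background on none. By this brightest probe the difference is at least 147-fold (log2 change 7.64, adjusted p = 3.6e-05), while the other probe of vas changed by 2.41. The regulator aly, which switches on the spermatocyte program, read 2.81, 2.09, 2.15 and 2.11 in germline and -3.99, -4.36, -4.16 and -4.77 in thorax. The groups did not overlap for either gene. Conversely Act88F, the actin of indirect flight muscle, read -4.91, -7.02, -6.80 and -7.35 in germline and 6.27, 6.10, 5.05 and 4.85 in thorax. Its change was -12.09 ± 0.64 (limma SE, 4 arrays against 4, with the spread estimated from all 12 arrays, here and below). The gene fln, which encodes the thick filament protein flightin, changed by -10.45, and the troponin C gene TpnC4 by -9.95 (-2.49 by its other probe). The flight muscle markers and the germline markers vas, aly, aub, bam, can and sa thus lay on the sides that the labels name, although bam overlapped between tissues. No value is given for nos, a further planned germline marker. The exception was zpg, the germline gap junction protein, whose brightest probe changed by -0.13 (adjusted p = 0.93). That probe had a level of -8.78 on germline replicate 1 against -2.19, -2.16 and -2.01 on the other 3, and probes of the gene ranged from -0.13 to 6.60. Without germline replicate 1 that probe was called higher (1.53).

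Genes of germline identity and differentiation were mostly higher in germline, with 16 of 26 called higher and 6 lower and a median change of 1.5. The translational repressor bgcn, which drives spermatogonia out of mitotic divisions together with bam, read 2.84, 1.84, 1.84 and 1.82 in germline and -7.28, -7.37, -5.13 and -7.39 in thorax. All germline arrays lay above all thorax arrays, and only thorax replicate 3 was above background. Its partner bam changed by 3.41 ± 0.79, with levels that overlapped between tissues, and stil, known for its role in survival of the female germline, by 9.73. Of the members that were lower, how, an RNA-binding protein of muscle and tendon, changed by -6.17 and Rbp9, an RNA-binding protein of neurons, by -4.68. The sex determination gene Sxl (-2.83) and the transcription factor ovo (-4.49), both known for their part in the female germline, were also lower, but Sxl lost its call without scaling (-0.48).

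Components of the piRNA pathway, which silences transposons in the germline with small RNAs, were higher for 23 of 30 genes and lower for 2, with a median of 5.0. The Tudor protein gene krimp, whose product sits in the perinuclear nuage, read 2.12, 0.69, 0.47 and 0.53 in germline and -7.69, -7.87, -6.47 and -7.31 in thorax, where no array was above background, a difference of at least 204-fold. The gene cuff, for a subunit of the complex that licenses transcription of piRNA clusters, was at least 122-fold higher, and 7 genes of the list were well above background on all 4 germline arrays and on no thorax array. The Argonautes aub (7.31) and AGO3 (6.65) rose, and piwi was at least 15.97-fold higher, with no thorax array above background. The mitochondrial and scaffold members papi (0.61) and Gasz (0.02) did not pass the test, although papi was called with germline replicates 2 to 4 (0.34). Without scaling papi (2.96) and Gasz (2.36) were called higher. The gene mino was lower by a small margin (-0.61), a call lost when any of germline replicates 2, 3 and 4 or male thorax replicates 1, 2 and 4 was left out (-0.61 to -0.51), and its change was 1.73 without scaling. The brightest probe for tapas was lower (-3.30), but its other probe read 4.18.

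All 15 meiotic arrest genes were called higher, with a median of 7.32. A subunit of the testis meiotic arrest complex, wuc, read 2.74, 1.73, 1.76 and 1.77 in germline against -7.97, -8.34, -5.69 and -7.87 in thorax (9.47 ± 0.53). The testis TFIID paralogs can (8.18), sa (6.86) and nht (7.82) rose with it, as did comr (7.79), topi (7.53) and kmg (9.68). For sa, germline replicate 1 read -3.55 and the other 3 arrays 2.58, 2.62 and 2.61, and without that array its change was 8.40. The complex member tomb changed by 8.77, with 1 thorax array (replicate 2) missing from the fit because its spot was marked as an outlier. Of the list, mia had the smallest rise, 3.39.

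Genes whose products act in spermatids were among the most different: 41 of 45 were called higher and 2 lower, with a median of 8.43. Such genes are commonly transcribed in spermatocytes and translated later. The study does not list spermatids among the cells of the tip, and carry-over of later stages in the dissection was not tested. The genes boly and schuy changed by 9.93 and 9.73, and the protamine genes ProtA (9.18) and ProtB (9.38), the sperm tail genes dj (8.73) and Mst98Ca (8.62), the testis tubulin betaTub85D (8.92) and the mitofusin of the spermatid nebenkern, fzo (6.80), also rose. The testis gene ocn read 4.42, 4.28, 4.40 and 4.35 in germline and -5.17, -5.41, -0.96 and -3.35 in thorax. Thorax replicate 3 was the highest of its group, and the groups did not overlap. The median level of the list on the thorax arrays was -6.84, -6.80, -1.79 and -4.15, so that replicates 3 and 4 stood above replicates 1 and 2. Leaving out thorax replicate 3 left 40 of the 45 genes called higher. The loopin-1 gene, encoding a leucyl aminopeptidase of sperm, was an exception by its brightest probe (-1.85, and 0.50 without scaling), while another of its probes read 8.03.

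Among genes of the axoneme, the microtubule core of the sperm tail, 17 of 19 were higher and 1 lower, with a median of 6.80. Tektin-A, a filament protein of ciliary doublets, changed by 9.74 and the radial spoke gene Rsph4a by 9.50. The fall was Dhc93AB, a dynein heavy chain known from ciliated sensory neurons (-3.62), above background on 1 of 4 germline arrays. The Y chromosome carries a small set of male fertility genes, several of which encode axonemal dyneins and are transcribed in growing spermatocytes. Of 11 measured, 10 were higher and 1 lower, with a median of 5.85, and 6 were well above background on all germline arrays and no thorax array. The dynein gene kl-5 read -0.52, 0.27, 0.15 and 0.12 in germline and -7.94, -8.28, -7.41 and -6.27 in thorax. Ppr-Y was at least 55.2-fold higher. For the list as a whole the median level on germline replicate 1 was -4.64, and between -2.02 and -1.72 on the others. ARY was lower by its brightest probe (-2.35) and higher by the other (7.99).

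**Figure D2:**
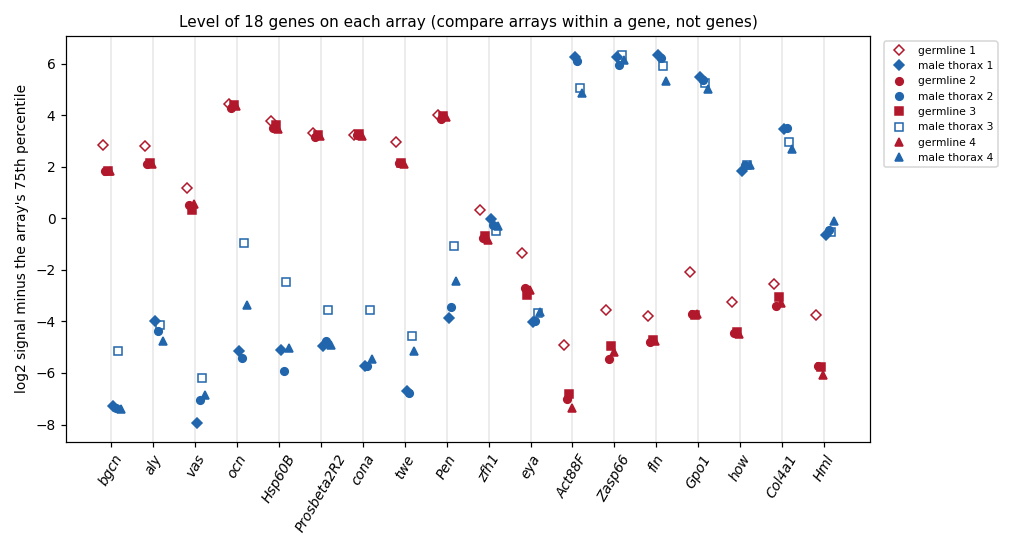
Scaled log2 level (vertical axis) of 18 genes on each of 4 germline arrays (red) and 4 male thorax arrays (blue), with germline replicate 1 and male thorax replicate 3 as open symbols. Groups do not overlap for the genes on the left and on the right. The cyst cell gene zfh1 overlaps. Among the genes on the left, male thorax replicate 3 is the highest thorax array for bgcn, vas, ocn, Hsp60B, Prosbeta2R2, cona, twe and Pen, but not for aly.

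Machinery of dividing cells was higher in germline. Of 59 genes of the cell cycle and mitosis, 48 were called higher and 8 lower, with a median of 3.40. The Cdc25 phosphatase of the meiotic divisions, encoded by twe, read 2.98, 2.15, 2.16 and 2.09 in germline and -6.69, -6.77, -4.58 and -5.16 in thorax, a change of 8.15 ± 0.65. The kinase gene aurB of the chromosomal passenger complex changed by 7.90. The mitotic Cdc25 phosphatase stg went the other way (-2.22), as did Cdk4 (-2.92), a kinase known for cell growth. The thorax arrays all lay above the germline arrays for stg, but its change was 0.12 without scaling, where Cdk4 lost its call (-0.58).

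DNA replication genes showed 31 of 45 higher and 4 lower, with a median of 2.06. PolE2, a subunit of DNA polymerase epsilon, changed by 5.98 and the origin recognition gene Orc2 by 5.49. Another origin recognition gene, Orc5, was lower by its brightest probe (-1.84) while its second probe read 2.13, and the histone chaperone asf1 was lower (-1.42). Both changes were above 0 without scaling (0.50 and 0.92). Genes of meiosis and homolog pairing were higher in 25 of 36 cases and lower in none, or in 3 with germline replicates 2 to 4 alone. The synaptonemal complex component corolla, known from female meiosis, changed by 9.34 with levels of 3.33, 2.63, 2.74 and 2.58 in germline and -8.12, -8.35, -4.13 and -5.47 in thorax. Another component, cona, had the largest rise among genes with a descriptive symbol that were above background on all 8 arrays (8.34). The genes ord (9.1) and sunn (at least 46.6-fold), whose products hold sister chromatids together in meiosis, rose as well. The cohesin subunits SMC3 (0.03) and vtd (-0.36) and the meiotic recombination gene mei-W68 (-0.40) did not pass the test, although vtd was called lower without germline replicate 1 (-0.64). Without scaling SMC3 (2.37), vtd (1.99) and mei-W68 (1.95) were all called higher. After quantile normalization mei-W68 was called higher (1.03) and vtd lower (-0.55).

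Nuclear pore and transport genes were higher in 33 of 45 cases and lower in 4, with a median of 1.83. The importin alpha encoded by Pen read 3.99, 3.86, 3.96 and 3.93 in germline and -3.86, -3.44, -1.06 and -2.43 in thorax. Ran-like, a testis paralog of the GTPase Ran, changed by 8.82. Nup75 (-2.15) and the mRNA export cofactor Nxt1 (-2.04) were lower. Both moved above 0 without scaling, to 0.19 and 0.30. Spliceosome genes were higher in 27 of 40 cases and lower in 1 (3 with germline replicates 2 to 4 alone), with a median of 1.20. Sf3a1 led the genes with a descriptive symbol (3.01), and the single fall, Prp16, was small (-0.65, adjusted p = 0.042). It lost its call when any array other than germline replicate 1 or male thorax replicate 1 was left out (-0.68 to -0.53), and its change was 1.70 without scaling. All 8 subunits of the cytosolic chaperonin were higher, from 0.81 for CCT2 to 2.26 for CCT5, and CCT2 lost its call when any thorax array was left out (0.76 to 0.86).

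Some genes of protein synthesis and degradation have a paralog known from gonads. Of 90 cytosolic ribosomal protein genes, 81 were lower and 6 higher, with a median of -2.07, but without scaling that median was 0.27, and relative to all genes it was -1.88 on the scaled values. The list's median level was between 3.46 and 3.68 on germline arrays and between 5.43 and 5.70 on thorax arrays. The 6 exceptions included duplicates known to be enriched in gonads. RpL22-like read 3.91, 3.51, 3.61 and 3.62 in germline and -7.94, -6.09, -2.80 and -5.25 in thorax, a change of 9.18, while RpL22 read -3.34, 1.68, 1.62 and 1.76 against 5.27, 5.21, 5.29 and 5.01 (-4.76, or -3.51 without germline replicate 1). RpL10Aa changed by 9.76 and RpL10Ab by -1.89, RpS19b by 7.15 and RpS19a by -2.24, and RpS5b by 7.12 and RpS5a by -1.93. Without scaling RpL10Ab, RpS19a and RpS5a changed by 0.45, 0.10 and 0.41, and their paralogs by 9.46 to 12.1. Of 10 such ribosomal pairs, the paralog was called higher and the first gene lower in 5. In others both members fell, as for RpS14a (-2.02) and RpS14b (-1.61), near-identical copies that a probe may not tell apart (0.33 and 0.73 without scaling).

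Proteasome subunits, which were higher in 19 of 32 cases and lower in 3 (7 with germline replicates 2 to 4 alone) with a median of 0.74, have a second set of genes expressed in testis. Of 13 measured testis paralogs, 12 were higher and none lower, with a median of 8.76. In 4 of 13 pairs, which hold 10 different first genes, the paralog was called higher and the first gene lower. These 4 pairs count Prosbeta5 with each of its paralogs, and their first genes all changed by 1.08 to 1.46 without scaling. In 4 other pairs the first gene was called higher. Prosbeta5, a catalytic subunit of the core, changed by -0.90 ± 0.23 (1.45 without scaling), while its paralogs Prosbeta5R1 and Prosbeta5R2 changed by 9.77 and 9.63. Prosbeta5R1 read 3.41, 2.82, 2.79 and 2.70 in germline and -7.81, -8.20, -4.27 and -7.10 in thorax, where replicate 3 alone was above background. Prosalpha6T changed by 9.73, against 0.81 for Prosalpha6. Rpt6R had the widest error (1.73 ± 1.90) and was called higher without germline replicate 1 (4.27). Prosbeta2R2, above background on all 8 arrays, read 3.30, 3.14, 3.21 and 3.17 against -4.96, -4.76, -3.56 and -4.93, and both tissues' values were measured and did not overlap.

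The respiratory chain also has such a second set. All 67 subunits were called lower in germline, with a median of -3.06 and of -0.72 without scaling, whereas 21 of 23 testis paralogs were higher, with a median of 7.79. In 17 of 19 pairs the paralog was called higher and the first gene lower. Over the 19 pairs, which hold 17 different first genes, the median changes were 7.45 for the paralogs and -3.90 for the first genes. SdhCL, a paralog of a succinate dehydrogenase membrane anchor, read 3.41, 2.67, 2.65 and 2.40 in germline and -7.90, -8.28, -4.19 and -7.17 in thorax (9.67), and SdhC changed by -3.66. ATPsynGL changed by 9.72 and ATPsynG by -3.02. Cyt-c-d, the testis cytochrome c that is known for its part in sperm individualization, changed by 7.45 and Cyt-c-p, the form of other tissues, by -4.35. One gene of the paralog list ran the opposite way: COX7AL2 read 1.47, -0.60, -0.67 and -0.77 in germline and 6.42, 6.32, 6.71 and 6.26 in thorax (-6.57). ND-49L (3.77, adjusted p = 0.11) did not pass the test with all arrays and was called higher without germline replicate 1 (6.46). Of single subunits, ND-MNLL (-6.24) and ND-MWFE (-6.04) had the largest falls, but both had values near -7 on germline replicate 1 only, and without it they changed by -3.96 and -3.63. On the thorax arrays the paralogs' median level was -6.65, -6.73, -3.16 and -5.30, again highest on replicate 3.

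**Figure D3:**
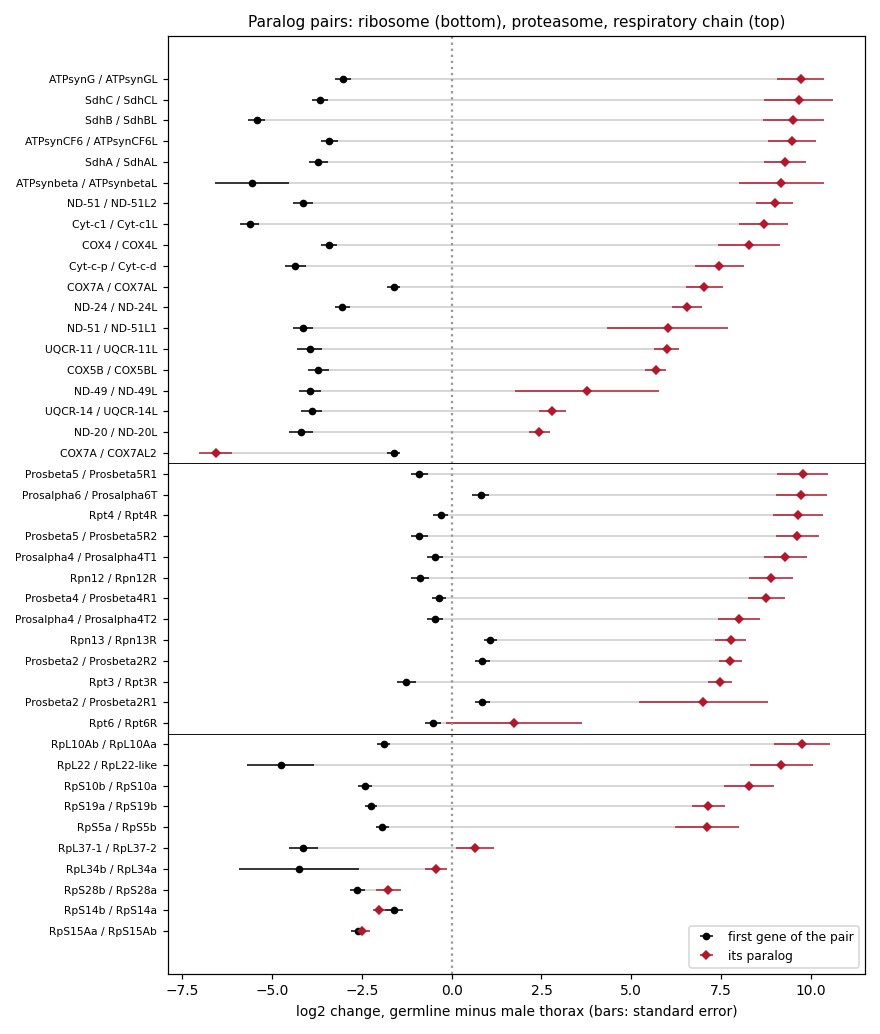
Change of the first gene of each pair (black circles) and of its paralog (red diamonds), in log2 units with limma standard errors, for 10 ribosomal, 13 proteasome and 19 respiratory chain pairs. The first genes of the respiratory chain pairs lie between -5.62 and -1.61 and their paralogs at 2.44 or above, with COX7AL2 at -6.57 as the exception.

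Other genes that belong with duplicated housekeeping functions were among the 12 largest rises of genes with a descriptive symbol and signal on all 8 arrays. They were ttm2 (8.26) and Tim17b1 (7.72), both paralogs of mitochondrial protein import genes, the mitochondrial chaperonin paralog Hsp60B (8.23), eIF4E4, a cap-binding translation factor (8.14), betaNACtes1, a testis form of a ribosome-associated chaperone (7.99), and betaTub65B, a divergent tubulin (7.74). Tengl1, a mitochondrial nuclease gene, changed by 8.25, lky by 7.83 and nsr, a regulator of Y-linked fertility transcripts, by 7.82. Hsp60B read 3.78, 3.51, 3.62 and 3.46 in germline and -5.11, -5.92, -2.47 and -5.04 in thorax. The gene nsr read 2.73, 2.94, 3.02 and 3.07 against -5.96, -5.39, -3.47 and -4.69. In both, thorax replicate 3 was the highest thorax array and remained below every germline array. Mitochondrial ribosomal proteins were split, with 17 of 72 higher and 20 lower (median -0.31 and, without scaling, 2.03), and mRpS18B changed by 2.51 and mRpS5 by -3.09. With germline replicates 2 to 4 alone 18 were higher and 39 lower.

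Genes of the contractile apparatus fell by large amounts. Of 36 sarcomere genes, 33 were lower and 2 higher, with a median of -8.47. Zasp66, a Z-disc protein, read -3.54, -5.47, -4.94 and -5.19 in germline and 6.24, 5.96, 6.35 and 6.12 in thorax, a change of -10.95 ± 0.37. Fhos, a formin of the sarcomere, changed by -11.21 by its brightest probe, with 3 probes from -11.21 to -1.54. The thick filament protein Prm changed by -10.41 and the calcium sensor TpnC41C by -10.03. Mhc, the single muscle myosin heavy chain gene, changed by -8.08 by its brightest probe, with probes from -12.48 to -8.08. For these genes even the highest germline array lay below the lowest thorax array. The 2 rises were the actin-binding Lasp (2.88), whose 3 probes ranged from -3.54 to 3.31, and unc-45 (1.07), a myosin chaperone, which lost its call when any of germline replicates 1, 2 and 3 or male thorax replicates 1, 2 and 3 was left out (0.83 to 1.15). Calcium handling and excitation genes were lower in 28 of 36 cases and higher in 2, with a median of -3.41, and the calcium channel Ca-alpha1D changed by -7.80. Outside the list, the sarcoplasmic calcium-binding protein Scp1 changed by -10.17. The rises, the calcium channel subunit stj (3.53) and the potassium channel Shaw (2.41), each had a second probe that was lower (-3.09 and -2.14).

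Genes of fuel metabolism were lower as well. Of 21 genes of glycolysis and the glycerol phosphate shuttle, 20 were lower and none higher, with a median of -4.93. Gpo1, the mitochondrial glycerol phosphate oxidase that flight muscle uses to pass on cytosolic reducing power, read -2.10, -3.72, -3.77 and -3.69 in germline and 5.48, 5.37, 5.24 and 5.01 in thorax (-8.59 ± 0.36). Gpdh1, its cytosolic partner, changed by -7.09 and the glycogen synthase Glys by -7.76. The aldolase Ald1 (-0.10) did not pass the test, and its change was 2.24 without scaling and 1.06 after quantile normalization. In the tricarboxylic acid cycle 18 of 21 were lower and 1 higher, with a median of -3.72. Ogdh changed by -7.37 and Idh3g by -6.85 (-5.42 without germline replicate 1, which read -5.66 against -0.09 to 0.15). The rise was ScsbetaG, the GTP-specific subunit of succinyl-CoA synthetase (1.38), and its ATP-specific counterpart ScsbetaA changed by -3.65 without passing the test. Without germline replicate 1, which read -7.05 for ScsbetaA against 1.90 to 2.09, it was called lower (-1.39).

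Transcription factors of muscle and segment identity were split, with 14 of 26 lower and 6 higher (median -1.69, and 0.65 without scaling). The flight muscle selector salm changed by -8.87, the wing and flight muscle factor vg by -6.60, the Hox gene Antp by -4.40 and Mef2 by -4.70, and the Hox gene Ubx was at least 58.0-fold lower. Against this, Doc1, a T-box factor, read 2.69, 1.75, 1.69 and 1.77 in germline and -6.14, -6.14, -5.11 and -4.89 in thorax, and the mesoderm factor twi was at least 69.2-fold higher in germline. The Hox genes pb (3.76) and lab (3.48) were also higher. Basement membrane and integrin genes were lower in 25 of 33 cases and higher in 4, with a median of -2.56. Col4a1, a collagen IV chain, changed by -6.22 and the integrin if by -8.20. The integrin alpha chain ItgaPS5 was at least 18.4-fold higher in germline, and Tsp was higher by its brightest probe (4.00) but not by all (-6.30 to 4.00).

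Cuticle proteins passed the filter for 88 of 126 genes, those below it being dim in all tissues. Of the 88, 44 were lower and 17 higher, with a median of -1.79 that became 0.55 without scaling. Cpr62Bb was at least 1595-fold lower in germline, and 11 genes of the list were above background on all thorax arrays and no germline array. Of the rises, Twdlalpha changed by 9.35 and Cpr65Ec was at least 51.7-fold higher in germline. The thorax arrays were not uniform here. Their list medians were -2.74, -2.68, -4.31 and -4.36, lower on replicates 3 and 4. Of the tracheal markers, the receptor btl was lower in germline (-4.71), while the chitin-modifying serp (-1.35, adjusted p = 0.14) and verm (-1.88, adjusted p = 0.23) did not pass the test, and serp was called lower without germline replicate 1 (-1.86).

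Neuronal and synaptic genes were lower in 37 of 43 cases and higher in 2, with a median of -3.84. Snap25, a component of the synaptic vesicle fusion machinery, read -8.67, -8.64, -8.94 and -8.09 in germline, not above background, and 2.61, 2.82, 3.05 and 3.29 in thorax, a difference of at least 1353-fold. The vesicular glutamate transporter VGlut, a marker of motor neurons, was at least 316-fold lower and the astrocyte gene alrm at least 967-fold lower. The acetylcholine receptor gene nAChRalpha1 was higher in germline (2.61), and so was the brightest probe of brp (1.24), the active zone scaffold, whose other probe read -1.55. The brp call was lost without male thorax replicate 4 (1.03). Clock genes were lower in 10 of 15 cases (median -1.19, and 1.15 without scaling). Pdf, the neuropeptide of clock neurons, was at least 221-fold lower and tim, the partner of per, changed by -7.32. Its thorax levels were -1.40, -1.08, 1.59 and 1.04, so that replicates 3 and 4 were over 2 log2 units above the others. The kinase gene dco was the single rise (3.52), with probes from -0.84 to 3.52, and with germline replicates 2 to 4 alone 3 genes of the list were higher.

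Immune genes were lower in 42 of 52 cases and higher in 4, with a median of -4.35. The secreted immune peptide BomS1 read -2.95, -5.26, -4.68 and -5.01 in germline and 4.72, 5.96, 5.22 and 4.82 in thorax (-9.65). Outside the list, the peptides BomBc3 (-9.94) and Drsl4 (-10.01) were among the 12 largest falls of genes with a descriptive symbol and signal on all 8 arrays. The cecropin CecA1 was higher in germline, at 2.42, 0.15, 0.36 and 0.29 against -2.57, -0.61, -2.53 and -2.16 (2.77, adjusted p = 0.0048). Markers of haemocytes, the circulating blood cells, were lower in 13 of 16 cases and higher in 1 (2 with germline replicates 2 to 4 alone): NimC1, a phagocytosis receptor, changed by -6.51 and Hml by -4.91. The glial and haemocyte factor gcm was the single rise, at least 43.4-fold, with -6.14 on germline replicate 1 and 0.17, 0.36 and 0.11 on the other 3.

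Detoxification genes were mostly lower in germline. Of 74 cytochrome P450s, 61 were lower and 9 higher, with a median of -5.40, and 12 were above background on all thorax arrays and no germline array. Cyp4d21, a male-biased P450 known for its role in courtship, was at least 1635-fold lower. The P450s Cyp312a1 (6.75) and Cyp4ad1 (5.71) went the other way and were above background on all 8 arrays. Of 57 glutathione and UDP-glycosyl transferases, 41 were lower and 6 higher, from Ugt35B1 at -9.0 to Ugt305A1 at 7.33. Genes of lipid storage and the fat body were lower in 31 of 35 cases and higher in none, with a median of -3.98. The fat body list also held whe, which read -7.40, -7.94, -6.49 and -7.78 in germline, above background on 1 array, and 6.41, 6.23, 6.99 and 6.62 in thorax (-13.96, against a germline level measured on that array only). The lipid droplet perilipin Lsd-1 changed by -7.29, or -5.76 without germline replicate 1.

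Small heat shock proteins did not move as a group, with 3 of 7 higher and 2 lower, and 5 higher and 2 lower with germline replicates 2 to 4 alone. Hsp23 (3.06), Hsp27 (2.95) and Hsp26 (1.99) were higher in germline. Hsp22, the mitochondrial small heat shock protein, was lower (-3.66, and -1.31 without a call when unscaled), and l(2)efl, a crystallin-like protein of muscle, changed by -9.99. Odorant-binding proteins and chemoreceptors passed the filter for 147 of 239 genes, of which 55 (37.4%) were higher and 54 (36.7%) lower, with a median of -0.18 that became 2.16 without scaling. These shares are near those of all genes tested. The rises included Obp56i, at least 255-fold higher in germline, and 18 genes of this list were above background on all germline arrays and no thorax array. Obp99b changed by -9.48.

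**Figure D4:**
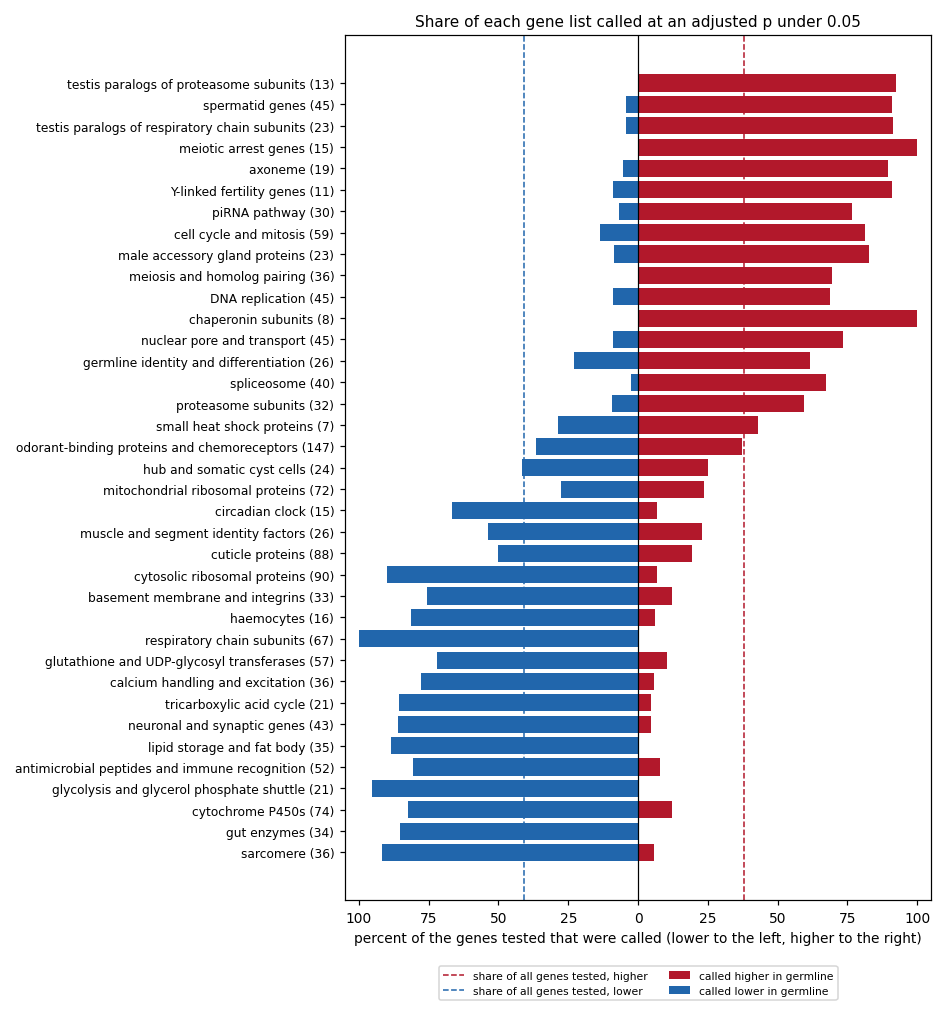
Percent of the genes tested in each list that were called higher (red, to the right) or lower (blue, to the left) in germline, with dashed lines at the shares of all genes tested, 37.8% and 40.7%. Testis paralogs, spermatid and meiotic arrest genes lie at the top and sarcomere, gut enzyme and P450 genes at the bottom.

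The somatic cells of the tip were represented by markers of the hub and the cyst cells. Of 24 tested, 6 were higher and 10 lower (median -0.30, and 2.05 without scaling). The largest of these rises was that of piwi (5.09), which is also described above with the piRNA pathway of the germline. The ligand secreted by the hub, upd1, read -3.49, -5.62, -5.35 and -5.77 in germline and -7.40, -7.61, -8.32 and -7.06 in thorax (2.54 ± 0.47). The factor esg, needed to maintain hub and stem cells, changed by 4.47 and the cyst cell factor eya by 1.38. The early cyst cell factors zfh1 (-0.22, adjusted p = 0.49) and tj (-0.37, adjusted p = 0.70) did not pass the test, and their levels overlapped between tissues. Without germline replicate 1, zfh1 was called lower (-0.49). Of the other planned cyst cell markers, Socs36E was lower (-2.47, and -0.12 without scaling), while ptc (1.09, adjusted p = 0.053) did not pass the test. The hub adhesion proteins Fas3 (-1.25) and CadN (-1.71) were lower by their brightest probes, and both changes moved above 0 without scaling. The other probe of CadN read 1.17, and the 4 probes of Fas3 ranged from -6.42 to -1.25. The levels of Fas3 overlapped between tissues, and its call was lost after quantile normalization (-0.44). The signalling genes dpp (-4.20), Egfr (-4.04) and Stat92E (-3.63) were lower in the tip, the Egfr call being lost without scaling (-1.70).

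Transcripts of the accessory gland and the gut also differed. Those of male accessory gland proteins, secreted in the seminal fluid, were higher on the germline arrays in 19 of 23 cases and lower in 2, with a median of 3.30, and 10 were above background on all germline arrays and no thorax array. Acp36DE read 1.08, -0.24, -0.03 and -0.15 in germline and -7.99, -6.90, -7.17 and -8.64 in thorax, at least 126-fold apart, and SP, the sex peptide, was at least 28.5-fold higher, at 0.10, -3.14, -2.29 and -2.56 in germline. The list's median level was -2.08 on germline replicate 1 and between -4.47 and -3.83 on the others. Digestive enzymes of the gut were higher on the thorax arrays in 29 of 34 cases, with a median change of -7.00. The list's median level was 1.55, 2.01, 3.12 and -3.05 on the thorax arrays and between -6.41 and -4.34 on the germline arrays, so that thorax replicate 4 stood below the other 3. The trypsin gammaTry read 2.90, 2.91, 4.15 and 1.61 in thorax (-9.58). The part of either organ in the other results was not tested.

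**Figure D5:**
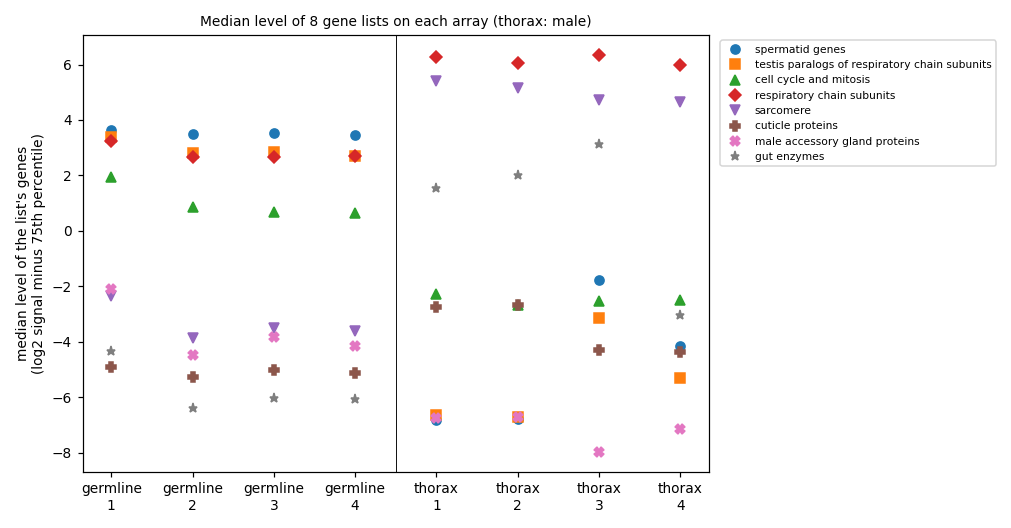
Median scaled log2 level (vertical axis) of the genes of 8 lists on each germline and male thorax array. Spermatid genes and respiratory chain paralogs were highest among thorax arrays on replicate 3, gut enzymes were lowest there on replicate 4, and accessory gland transcripts were highest on germline replicate 1.

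The scanner software's call of signal over background does not use the scaling. By that call, of all genes tested, 395 (3.29%) were well above background on all 4 germline arrays and on no male thorax array, and 347 (2.89%) the other way round. With germline replicates 2 to 4 these numbers were 518 and 446. Genes that carry only an annotation number in place of a name made up 248 of the 395 and 153 of the 347, against 4826 of the 11996 genes tested, and 45.1% of all number-only genes were called higher in germline, against 32.9% of genes with a name.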

How the data were processed

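RNA from testis apical tips, male thorax and female thorax was hybridised to one-colour Agilent arrays, 4 per tissue, each from an independent pool per the study's methods. The deposited scanner files hold spot intensity per the file headers: the processed signal, background-subtracted and detrended by Agilent Feature Extraction (version 9.1 in the submitters' processing notes, a later one in the file headers), which does not scale arrays to each other. A second deposited file gives log2 values, 1 mean per tissue, unscaled between arrays. It served only as an alternative, with no test, since it holds no replicates.

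Control spots and outlier-flagged spots were dropped, spots of a probe averaged, log2 taken and the 75th percentile of each array subtracted. Probes with a mean log2 signal below 7 in all 3 tissues were removed, which left 24878 of 32162. Limma (version 3.58.1, R 4.3.3) was fitted to all 12 arrays with lmFit and eBayes, p-values were adjusted by the Benjamini-Hochberg method over these probes, and genes were called at an adjusted p under 0.05. The steps were tested on simulated data. Probes were named through a RefSeq table, 18121 by locus tag, 1155 by an older locus tag and 115 by accession, and 12771 were left without a gene. A gene is represented by its probe with the highest mean signal over both tissues. "At least" folds set the brighter tissue against the higher of the dim probe's own signal and the lowest signal well above background on each array.

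The gene lists and members were chosen with earlier results of these data known. Named genes are the 12 largest rises and falls with signal on all 8 arrays, up to 2 rises and 2 falls of each list, all members of lists of 6 or fewer, and cell type markers; further members were named after their values were seen. Replicate numbers follow slide and position and pair nothing. Alternatives were other scalings, normexp background correction (offset 50), other filters, array weights, slide as a block or alone, the mean of probes, and each array left out. The number of arrays limits the precision.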

Additional observations from a re-analysis of the deposited data

Results flagged for a closer look

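Each gene named in the report, other than Socs36E and ptc, was examined for an array that stood far from the other 3 of its tissue. Of 374 groups of 4 arrays examined, 110 had such an array, where chance gives about 1 in 20. In most of these the array was germline replicate 1, which lay above the other 3 germline arrays 73 times and below them 20 times. Values are scaled log2 levels of the array that stood apart.

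Germline replicate 1 was the high array for regulators of the germline and the piRNA pathway, namely bgcn (2.84), stil (2.99), aly (2.81), can (2.54), comr (1.36), mia (2.48), nht (2.66), topi (2.40), wuc (2.74), aub (2.42), cuff (1.29), krimp (2.12), papi (3.18), tapas (-1.75) and Gasz (0.71). It was high for genes of division, nuclear transport, splicing and folding, twe (2.98), aurB (2.98), Cdk4 (-2.53), Orc2 (0.46), PolE2 (1.04), asf1 (0.17), SMC3 (0.89), Nup75 (2.73), Nxt1 (1.27), Sf3a1 (2.02) and CCT2 (2.23). Among sperm genes, testis paralogs and their partners it was high for schuy (3.5), Tektin-A (3.47), Rsph4a (3.41), Prosbeta5 (2.98), Prosbeta5R1 (3.41), RpS5b (3.91), ATPsynG (3.69), COX7AL2 (1.47), betaNACtes1 (3.68) and betaTub65B (3.35). For genes whose level was higher in the thorax it was also the high germline array, as for Fhos (-3.98), Mhc (-0.81), TpnC4 (-1.79), TpnC41C (-2.92), fln (-3.79), how (-3.25), vg (-3.36), Gpo1 (-2.10), Hml (-3.74), Rbp9 (0.23), tim (-5.75), gammaTry (-5.64), Fas3 (-1.16), Stat92E (0.56) and Sxl (0.74). The remaining genes for which it was high were Acp36DE (1.08), CecA1 (2.42), Cpr65Ec (-0.34), Cyp4ad1 (2.72), Doc1 (2.69), Hsp23 (3.27), ItgaPS5 (-1.18), Lasp (3.46), Obp56i (2.27), ScsbetaG (2.97), Tsp (3.43), Twdlalpha (3.19), dco (2.69), esg (1.00), eya (-1.33), lab (-2.16), pb (-1.06), serp (1.06), stj (0.42), twi (0.21), unc-45 (2.15) and zfh1 (0.31).

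Germline replicate 1 was the low array for ND-49L (-8.65), ND-MNLL (-7.11), ND-MWFE (-7.07), ScsbetaA (-7.05), Idh3g (-5.66), Gpdh1 (-5.16), Rpt6R (-6.90), RpL22 (-3.34) and Ran-like (-0.66) among genes of metabolism and housekeeping. It was low for AGO3 (-4.14), sa (-3.55), zpg (-8.78), tj (-8.66), gcm (-6.14) and ARY (-5.48) among genes of the testis and blood, and for CadN (-4.89), Drsl4 (-5.31), Lsd-1 (-8.65), if (-8.38) and verm (-8.73) among the others. Male thorax replicate 3 was the high thorax array for bgcn (-5.13), sa (-4.38), kmg (-5.36), cona (-3.56), Prosalpha6T (-4.43), Prosbeta2R2 (-3.56), ATPsynGL (-4.51), Cyt-c-d (-1.70), Tengl1 (-3.61), eIF4E4 (-3.0) and ttm2 (-3.57), genes that were higher in germline, and also for ND-MNLL (6.16) and Ubx (-1.01). It was low for stj (-4.73). Male thorax replicate 1 was low for CCT5 (-0.68) and how (1.85), and male thorax replicate 4 was high for zpg (-3.32).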

How the results depend on the processing

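Counts of genes called higher and lower were 7152 and 2263 without scaling between arrays, 2476 and 2528 on the shared slide alone (2 arrays against 2), and within 1.5 times of the 4535 and 4888 reported under every other alternative run. Leaving out 1 array gave 4295 to 4890 genes higher and 4689 to 5457 lower. All 31 gene lists whose median lay over 1 log2 unit from that of all genes kept their direction under every alternative run, of which the removal of scaling cannot change a median relative to all genes. The following list medians, relative to that of all genes, moved by more than 1 SD between replicate arrays; the cause was not tested.

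After quantile normalization they were: nuclear pore and transport 1.65, cytosolic ribosomal proteins -0.53, mitochondrial ribosomal proteins -0.71, proteasome subunits 1.25, respiratory chain subunits -2.50, sarcomere -7.60, calcium handling and excitation -2.63, muscle and segment identity factors -1.81, cytochrome P450s -4.85, glutathione and UDP-glycosyl transferases -2.58, lipid storage and fat body -3.45, odorant-binding proteins and chemoreceptors 0.78, haemocytes -2.44. With normexp background correction of the median spot signal (offset 50) they were: piRNA pathway 4.06, meiotic arrest genes 6.08, axoneme 5.33, Y-linked fertility genes 3.49, cytosolic ribosomal proteins -1.69, proteasome subunits 1.19, testis paralogs of proteasome subunits 7.40, muscle and segment identity factors -1.27, cytochrome P450s -4.29, glutathione and UDP-glycosyl transferases -2.72, lipid storage and fat body -3.26, odorant-binding proteins and chemoreceptors -0.60, male accessory gland proteins 1.34, haemocytes -2.37. Without the filter on dim probes they were: meiosis and homolog pairing 2.82, cytosolic ribosomal proteins -1.68, proteasome subunits 1.13, respiratory chain subunits -2.67, cytochrome P450s -5.01, lipid storage and fat body -3.59, haemocytes -2.55. With the filter set to signal well over background on every array of 1 tissue they were: meiosis and homolog pairing 2.94, lipid storage and fat body -3.61, odorant-binding proteins and chemoreceptors -0.68. With array weights they were: nuclear pore and transport 2.27, tricarboxylic acid cycle -3.82, muscle and segment identity factors -1.92, neuronal and synaptic genes -4.23, cytochrome P450s -4.83. With slide as a block they were: nuclear pore and transport 1.77, proteasome subunits 0.76, glycolysis and glycerol phosphate shuttle -4.14, sarcomere -7.61, muscle and segment identity factors -1.18, circadian clock -1.48. On the shared slide alone they were: tricarboxylic acid cycle -4.15, muscle and segment identity factors -1.02, cytochrome P450s -4.92, glutathione and UDP-glycosyl transferases -2.71, circadian clock -2.79, lipid storage and fat body -3.44. With the mean of all probes of a gene they were: germline identity and differentiation 2.47, proteasome subunits 0.39, muscle and segment identity factors -1.81, neuronal and synaptic genes -4.53, circadian clock -1.71. Without germline replicate 1 and male thorax replicate 3 together, an alternative chosen after the data had been seen, they were: meiotic arrest genes 8.45, meiosis and homolog pairing 2.38, muscle and segment identity factors -1.87, neuronal and synaptic genes -4.17, cytochrome P450s -4.88, lipid storage and fat body -3.55. From the authors' table of means per tissue they were: tricarboxylic acid cycle -3.88, muscle and segment identity factors -1.19, cytochrome P450s -4.53, odorant-binding proteins and chemoreceptors -0.61, haemocytes -1.71. Leaving out each array in turn gave ranges of 2.36 to 2.69 for meiosis and homolog pairing, -4.26 to -3.49 for tricarboxylic acid cycle, -1.82 to -1.39 for muscle and segment identity factors, -5.27 to -4.93 for cytochrome P450s, -3.01 to -2.77 for glutathione and UDP-glycosyl transferases, -1.65 to -0.90 for circadian clock, -4.04 to -3.59 for lipid storage and fat body.

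On the reported values these medians were Y-linked fertility genes 6.05, axoneme 7.0, calcium handling and excitation -3.21, circadian clock -1.0, cytochrome P450s -5.21, cytosolic ribosomal proteins -1.88, germline identity and differentiation 1.70, glutathione and UDP-glycosyl transferases -3.04, glycolysis and glycerol phosphate shuttle -4.73, haemocytes -2.75, lipid storage and fat body -3.79, male accessory gland proteins 3.5, meiosis and homolog pairing 2.62, meiotic arrest genes 7.52, mitochondrial ribosomal proteins -0.11, muscle and segment identity factors -1.49, neuronal and synaptic genes -3.65, nuclear pore and transport 2.02, odorant-binding proteins and chemoreceptors 0.02, piRNA pathway 5.20, proteasome subunits 0.94, respiratory chain subunits -2.87, sarcomere -8.27, testis paralogs of proteasome subunits 8.96, tricarboxylic acid cycle -3.52.

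Of the genes named that were called in either setting, these turned from a change below 0 to one above 0 without scaling: Ald1 (2.24), CadN (0.64), Fas3 (1.09), Nup75 (0.19), Nxt1 (0.30), Orc5 (0.50), Prosbeta5 (1.45), Prp16 (1.70), RpL10Ab (0.45), RpS14a (0.33), RpS14b (0.73), RpS19a (0.10), RpS5a (0.41), asf1 (0.92), loopin-1 (0.50), mei-W68 (1.95), mino (1.73), stg (0.12), vtd (1.99), zfh1 (2.12). The same held after quantile normalization for Ald1 (1.06), RpL10Ab (0.24), RpS14a (0.040), RpS5a (0.14), mei-W68 (1.03), and for zpg without germline replicate 1 (1.53; -0.72 to 1.53 when each array was left out), with male thorax replicate 3 left out as well (1.51). Named genes with a call in neither setting also turned above 0 without scaling: zpg (2.21), tj (1.98), serp (0.99) and verm (0.47). After quantile normalization zpg (0.77) and tj (0.86) did so as well. Calls below 0 were lost without scaling for ARY (-0.0089), Cdk4 (-0.58), Egfr (-1.70), Hsp22 (-1.31), ND-MWFE (-3.69) and Sxl (-0.48). After quantile normalization calls were lost for CCT2 (0.54), Fas3 (-0.44), Prp16 (-0.22), loopin-1 (-0.081), stg (-0.91) and unc-45 (0.82). Calls with the same sign were gained without scaling for Gasz (2.36), ND-49L (6.11), SMC3 (2.37) and papi (2.96). After quantile normalization they were gained for ND-49L (4.58) and vtd (-0.55).

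No paired analysis was possible because the replicate numbers follow slide and position, the labels give 1 sample per tissue with 4 arrays, and germline and male thorax share only 1 slide. The planned share of promoters holding each motif was not run, for want of promoter sequence here. Signal over background limits the low end: genes dim in every tissue were not tested, folds against a tissue without signal are lower bounds, and 227 of 3759 genes with several tested probes (6.04%) had probes called in opposite directions. The 4 arrays per tissue limit the precision. Since scaling moved the median of all genes from 2.15 to -0.20, the sign of small falls depends on it.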

Other observations

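Grouping genes by the stem of their symbol, for stems with at least 10 genes tested, gave families that the report does not describe as such. Some of their genes, such as chemoreceptors, BomS1 and NimC1, were already counted in the lists above. These are counts and medians with no test of a family, and a stem can join genes of unlike function. Over all genes tested, 37.8% were called higher and 40.7% lower. Of these genes, 3.29% were well above background on all germline arrays and no thorax array, and 2.89% the other way round. The Mst genes, named for male-specific transcripts, were higher in germline in 16 of 18 cases and lower in 1, with a median change of 7.20. TTLL genes, which encode enzymes that add amino acids to tubulin tails, were higher in 7 of 10 cases and lower in 1 (median 3.89). Klp genes, for kinesin-like motors, were higher in 6 of 10 and lower in 2 (3.26). Subunits of Mediator, the bridge between transcription factors and RNA polymerase, were higher in 17 of 24 cases and lower in 3 (MED, 1.39). PIG genes, which build the lipid anchor of surface proteins, were higher in 12 of 18 and lower in 2 (1.39). The Osi family, known from developing cuticle and trachea, was higher in 11 of 17 cases and lower in 4 (1.77). Of its genes, 3 were well above background on all germline arrays and no thorax array. Gustatory receptors (Gr) were higher in 17 of 33 cases and lower in 5 (1.80), while odorant receptors (Or) split, with 11 of 33 higher and 12 lower (-0.86, and 1.48 without scaling). The shares of Or genes called, 33.3% and 36.4%, are near those of all genes tested.

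On the other side, all 11 Bom genes, for secreted immune peptides, were lower in germline, with a median of -8.24, and all 10 maltases (Mal) were lower, with a median of -5.89. The Jon genes, for serine proteases, were lower in 12 of 15 cases and higher in none (-6.50), and Nim genes, for receptors of phagocytosis, in 9 of 10 (-5.20). Tetraspanins, which share the stem Tsp with thrombospondin, were lower in 26 of 34 cases and higher in 3 (-3.71). The dpr genes, for immunoglobulin proteins of neuronal recognition, were lower in 18 of 20 cases and higher in 2 (-3.52). Of them, 7 were well above background on all thorax arrays and no germline array. Lower, too, were 8 of 12 beat genes, known from axon guidance (-3.06). Autophagy genes (Atg) were lower in 13 of 20 cases and higher in 2, but their median of -1.98 became 0.36 without scaling. The median of V-type proton pump genes (Vha, 20 of 32 lower and 11 higher), -1.33, was likewise above 0 without scaling.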
